A study of Mus musculus with 14 samples.

Results

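C1ql2, Dsp, Lct and Prox1 are genes that mark granule neurons of the dentate gyrus, a part of the hippocampus, and here they were followed in RNA sequencing of mouse visual cortex. The 4 genes were chosen by symbol, and all 4 are among the 12874 genes of the deposited table. They were picked because their levels stood out in 20Hz replicates 2 and 7 and 40Hz replicate 4, so those levels are a description, without a test, and these 3 samples are set beside the other 11 throughout. C1ql2 and Dsp set all 3 of these samples apart, and most other granule cell genes did not. Lct exceeded the other 11 in 20Hz replicates 2 and 7. Prox1 did so in 20Hz replicate 2 and, by 10.7 against 10.5, barely in 40Hz replicate 4. The 14 samples came from male wild-type mice, bred from 5xFAD stock on a B6SJL background and aged 4 or 5 months. Of these, 7 received 20Hz and 7 received 40Hz stimulation for 1 h, with 3 and 4 mice of 5 months respectively. Of the samples set aside, 20Hz replicate 2 and 40Hz replicate 4 came from mice of 5 months and 20Hz replicate 7 from a mouse of 4 months. The labels name neither the kind of stimulus nor the limits of the dissection, and no unstimulated mouse was among the samples.

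The dentate gyrus lies beneath the posterior cortex, and its granule cells receive the main cortical input to the hippocampus. PROX1 is the homeodomain transcription factor that sets and keeps granule cell identity; in cortex it is also made by interneurons of the caudal ganglionic eminence. C1QL2 is a secreted C1q-like protein that mossy fibres, the axons of granule cells, release at their synapses, where it binds neurexin and kainate receptors. Desmoplakin, encoded by Dsp, ties desmosomes to intermediate filaments and is best known in skin and heart, and Lct encodes lactase, the milk sugar enzyme of the small intestine; both transcripts are used as granule cell markers in the mouse brain.

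The samples held between 6108717 and 13744933 reads over the listed genes. Values below are normalized read counts, which are reads divided by 1 factor per sample, and reads are the whole numbers recovered from them. Levels were not compared between genes, since the table gives no length and genes with several RefSeq transcript models were lower in it: the median level was 327 for 3944 genes of 1 model and 49.4 for 8775 genes of 2 or more. C1ql2 and Lct have 1 model, Dsp has 2 and Prox1 has 6. One library stood apart before any dentate gene was considered. In 20Hz replicate 2 the choroid plexus gene Ttr was at 13256, against 2037 in 20Hz replicate 1 and 9.08 to 55.0 elsewhere, so results are also given without it. Rprm, a gene of deep layer cortical neurons, was present in each sample, at 2169 in 20Hz replicate 2, 3210 in 20Hz replicate 7 and 2760 in 40Hz replicate 4, against 2830 to 5062 in the other 11.

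The promoters of 3 of the genes are shown because C1ql2 and Dsp separated the same samples while Lct followed another order. Each window is the 250 bases before the RefSeq start in GRCm38.p6, a build other than the one used for the table. C1ql2 is at chr1:120340332-120340581 on the plus strand, Dsp at chr13:38151044-38151293 on the plus strand and Lct at chr1:128328319-128328568 on the minus strand. Capitals mark the E-box, the letters CANNTG, which basic helix-loop-helix factors bind.
C1ql2: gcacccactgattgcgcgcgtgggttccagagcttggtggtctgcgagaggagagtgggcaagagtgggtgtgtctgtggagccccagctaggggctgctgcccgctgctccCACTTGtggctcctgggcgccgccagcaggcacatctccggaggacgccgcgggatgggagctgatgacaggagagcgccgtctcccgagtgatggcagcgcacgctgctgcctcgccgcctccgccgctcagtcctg
Dsp: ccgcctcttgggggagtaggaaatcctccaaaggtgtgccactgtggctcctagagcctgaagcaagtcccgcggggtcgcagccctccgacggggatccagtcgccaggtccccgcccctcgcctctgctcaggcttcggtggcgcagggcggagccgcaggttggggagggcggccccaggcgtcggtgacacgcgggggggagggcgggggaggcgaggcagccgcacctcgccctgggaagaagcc
Lct: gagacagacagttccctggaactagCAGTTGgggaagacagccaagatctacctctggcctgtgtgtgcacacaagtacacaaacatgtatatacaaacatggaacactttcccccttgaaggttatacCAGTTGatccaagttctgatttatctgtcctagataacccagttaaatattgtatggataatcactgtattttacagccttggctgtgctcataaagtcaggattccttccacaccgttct

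The windows shared little. With both strands searched, C1ql2 held 1 E-box, Lct held 2 and Dsp held 0, and 66.2% of 32817 RefSeq promoter windows of the same length hold at least 1. GC content was 68.8% for C1ql2 and 72.4% for Dsp, against 42.8% for Lct and a median of 52.4% over all windows. The GC box GGGCGG was found 4 times in Dsp and not in the windows of C1ql2 and Lct; 32.7% of all windows hold it. Prox1 has 2 windows in the table, the upstream one with 2 E-boxes and the other with 0. All 4 genes were matched by symbol. The cyclic AMP response element TGACGTCA was in none of the 5 windows and in 1.55% of all, and a match or its absence says nothing of the factor.

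C1ql2, the synaptic organizer of mossy fibres, was well counted in every sample. It measured 2287 normalized counts in 20Hz replicate 2, 1354 in 20Hz replicate 7 and 1197 in 40Hz replicate 4. In the other 20Hz samples it measured 354 in replicate 1, 326 in replicate 3, 540 in replicate 4, 159 in replicate 5 and 182 in replicate 6. In the other 40Hz samples it measured 195, 173 and 167 in replicates 1 to 3, and 396, 218 and 392 in replicates 5 to 7. The samples set aside did not overlap with the rest: the lowest of them was 2.22-fold above the highest of the other 11, and the 3 were 10.5-, 6.22- and 5.50-fold above the median of the 11. The exact Poisson 95% intervals of 20Hz replicate 7 (1267 to 1446) and 40Hz replicate 4 (1125 to 1274) overlapped slightly, whereas that of 20Hz replicate 2 (2197 to 2379) lay above both. Overlap of intervals is not a test of order, and none was run. Such intervals cover counting error only, since reads without molecular identifiers are not independent molecules. C1ql2 was never near 0, and among the other 11 samples it still varied 3.39-fold.

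Dsp, the desmosomal linker, showed the widest gap. It measured 273 in 20Hz replicate 2 (295 reads), 59.0 in 20Hz replicate 7 (39 reads) and 77.6 in 40Hz replicate 4 (65 reads). In the other 20Hz samples it measured 9.45 in replicate 1, 2.29 in replicate 3, 5.88 in replicate 4, 0 in replicate 5 and 2.13 in replicate 6. In the other 40Hz samples it measured 1.51 in replicate 1, 0 in replicate 2, 2.39 in replicate 3, 4.66 in replicate 5, 2.18 in replicate 6 and 0 in replicate 7. Dsp thus rested on at most 8 reads in each of the 11, and the lowest of the samples set aside was 6.24-fold above the highest of these. A count of 0 allowed up to 2.61 normalized counts in 20Hz replicate 5, 2.67 in 40Hz replicate 2 and 5.32 in 40Hz replicate 7, taking 3 reads as the limit.

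Lct, the lactase gene, was high in 2 of the samples set aside and overlapped with the rest in the other. It measured 286 in 20Hz replicate 2, 151 in 20Hz replicate 7 and 52.5 in 40Hz replicate 4. In the other 20Hz samples it measured 9.45 in replicate 1, 17.2 in replicate 3, 36.5 in replicate 4, 64.4 in replicate 5 and 41.5 in replicate 6. In the other 40Hz samples it measured 2.27, 9.78 and 25.5 in replicates 1 to 3, and 30.3, 53.3 and 7.10 in replicates 5 to 7. The counting interval of 40Hz replicate 4, 38.2 to 70.5, overlapped with those of 20Hz replicates 4, 5 and 6 and 40Hz replicates 5 and 6. Among the other 11 samples Lct ranged from 2.27 (3 reads) in 40Hz replicate 1 to 64.4 (74 reads) in 20Hz replicate 5.

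Prox1, the granule cell identity factor, was close to the limit of detection in this table, with 71 reads over all 14 samples. It measured 20.4 in 20Hz replicate 2 (22 reads), 6.05 in 20Hz replicate 7 (4 reads) and 10.7 in 40Hz replicate 4 (9 reads). The other 11 samples ranged from 0 to 10.5 with a median of 3.53, and the highest of them was 40Hz replicate 5, also with 9 reads. The interval of 20Hz replicate 2 (12.8 to 30.8) lay above the value of every other sample, whereas that of 20Hz replicate 7 (1.65 to 15.5) spanned most of them. The interval of 20Hz replicate 2 still overlapped with those of several samples, among them 40Hz replicates 4 (4.91 to 20.4) and 5 (4.79 to 19.9). A Prox1 level above 15.5 in 20Hz replicate 7 lay outside its interval, and a smaller rise was not detectable at this depth.

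**Figure D1:**
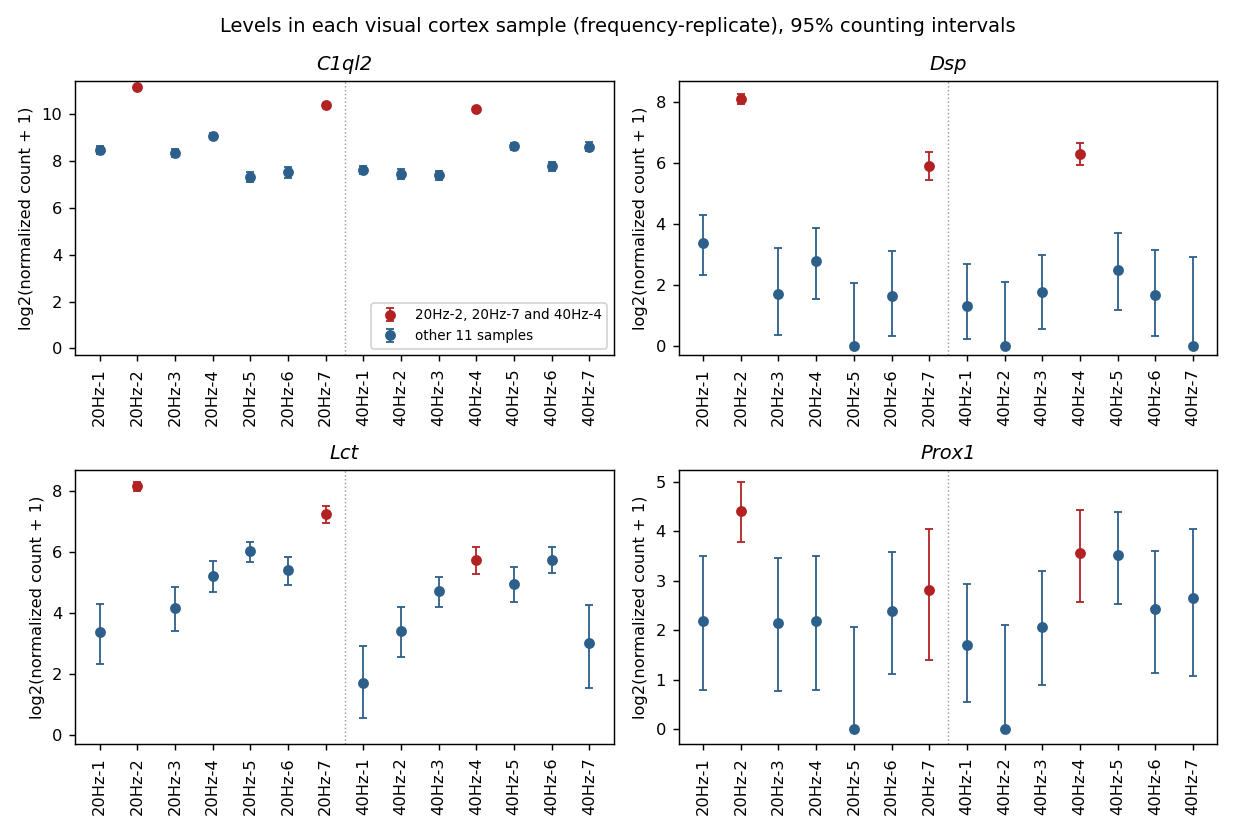
Levels of C1ql2, Dsp, Lct and Prox1 as log2(normalized count + 1) in each of the 14 samples, named by frequency and replicate, with bars for the exact Poisson 95% interval. Red points mark 20Hz replicates 2 and 7 and 40Hz replicate 4, which lie clear of the blue points for C1ql2 and Dsp and among them for 40Hz replicate 4 in Lct and 20Hz replicate 7 in Prox1.

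Complete separation of these 3 samples from the other 11 was uncommon across the table. Among the 10689 genes with a mean of at least 10 normalized counts, 92 (0.861%) had all 3 samples above all 11, and 6 (0.0561%) had at least 2-fold between them; over all 12874 genes these 6 were 0.0466%. Of the 4 genes, 3 reached that mean, and C1ql2 and Dsp were in both counts while Lct was in neither, with a ratio of 0.816. Without the minimum, 104 genes (0.808%) had all 3 samples above the rest, and Prox1, with a mean of 5.54 and a ratio of 0.578, was not among them. Because the genes were chosen on these very samples, nothing is read from their share. In the opposite direction 74 genes (0.692%) had all 3 samples below the rest. The 4 further genes past 2-fold were Rtl3, Vwa3b, Il20rb and Tdo2, with ratios of 8.94, 2.73, 2.48 and 2.25. Rtl3, Dsp, Vwa3b and Tdo2 had medians of 1.74, 2.18, 4.70 and 7.83 in the other 11. They reached the minimum mean of 10 only through the 3 samples set aside.

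**Figure D2:**
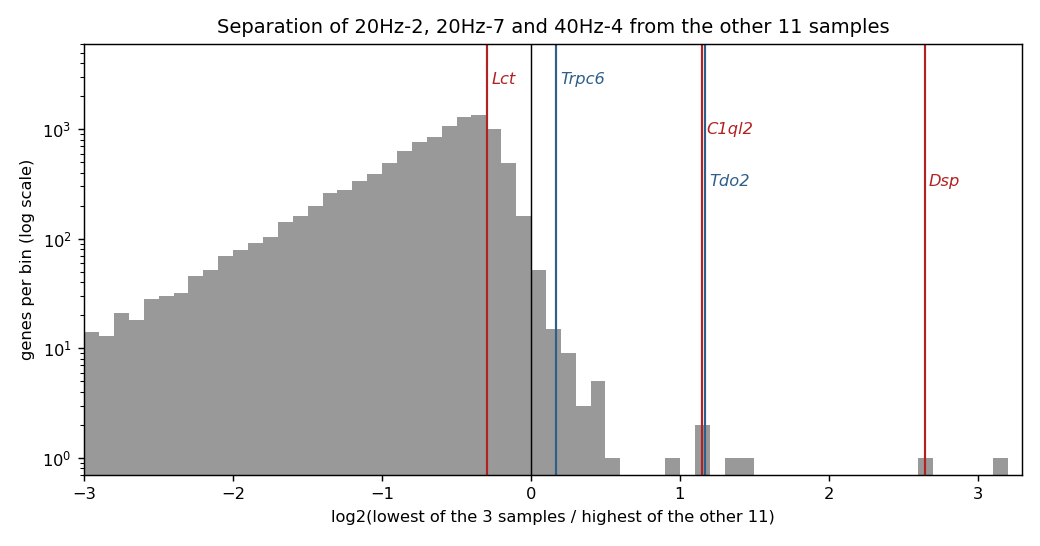
Number of genes (log scale) by the log2 ratio of the lowest of 20Hz replicates 2 and 7 and 40Hz replicate 4 to the highest of the other 11 samples, for genes with a mean of at least 10; genes at 0 in one of the 3 and ratios below the axis are not drawn. Dsp, C1ql2 and the dentate genes Tdo2 and Trpc6 lie to the right of 0, where the 3 samples exceed all others, and Lct lies to the left.

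Other granule cell genes were taken from a list of 21, of which 16 were in the table and 12 had a mean of at least 10. Of these 12 genes 2, Tdo2 and Trpc6, had the 3 samples above all others, and 0 had them below. Among all 16 genes in the table the same 2 did. Tdo2 encodes tryptophan dioxygenase and Trpc6 a calcium-permeable cation channel. Tdo2 measured 47.2 in 20Hz replicate 2, 31.8 in 20Hz replicate 7 and 52.5 in 40Hz replicate 4, against 1.18 to 14.1 with a median of 7.83 in the other 11. It reached the minimum mean of 10 only through the 3 samples. Trpc6 measured 304, 186 and 193 in the same order, against 99.1 to 166 with a median of 145. For Tdo2 the order of the 3 differed from that of C1ql2, with 40Hz replicate 4 highest. The gap of Trpc6 was narrow, at 1.12-fold.

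The remaining 10 genes did not separate the samples, and several of them are also made by cortical neurons. Calb1, the calcium buffer calbindin, measured 4211, 3941 and 4213 in the 3 samples, within the 3441 to 5148 of the other 11. C1ql3, the paralogue of C1ql2, measured 3293, 2782 and 2771, against 2174 to 3008, so that 20Hz replicate 2 alone exceeded the rest. The same held for Ahcyl2, at 127 against at most 49.1, and for Stxbp6, at 257 against at most 192. Glis3 was at 41.7 in 20Hz replicate 2 and at 16.7 in 40Hz replicate 4, above the 16.0 that the others reached at most, but at 10.6 in 20Hz replicate 7. Fam163b exceeded the rest in 20Hz replicate 2 alone, at 12536 against at most 9718. Tiam1 was low, at 44.4, 43.9 and 50.1 against 36.6 to 84.3 with a median of 68.4. Pdzd2, at 455, 418 and 417, was also below the median of the other 11, 473. Gsg1l (24.1, 37.8 and 23.9) and Lrrtm4 (387, 463 and 261) lay within the other samples. The median deviation of the 12 genes from their own medians was 0.40 on the log2 scale in 20Hz replicate 2, 0.014 in 20Hz replicate 7 and -0.055 in 40Hz replicate 4, and -0.20 to 0.056 in the other 11. As a whole the list was therefore high in 20Hz replicate 2 and not in 20Hz replicate 7 or 40Hz replicate 4. Its summed level was 21778, 17787 and 16490 in the 3 samples and 14148 to 18667 in the rest, with no listed gene at 0 in every sample. That sum was mostly Fam163b, Calb1 and C1ql3, with means of 8761, 4317 and 2789.

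**Figure D3:**
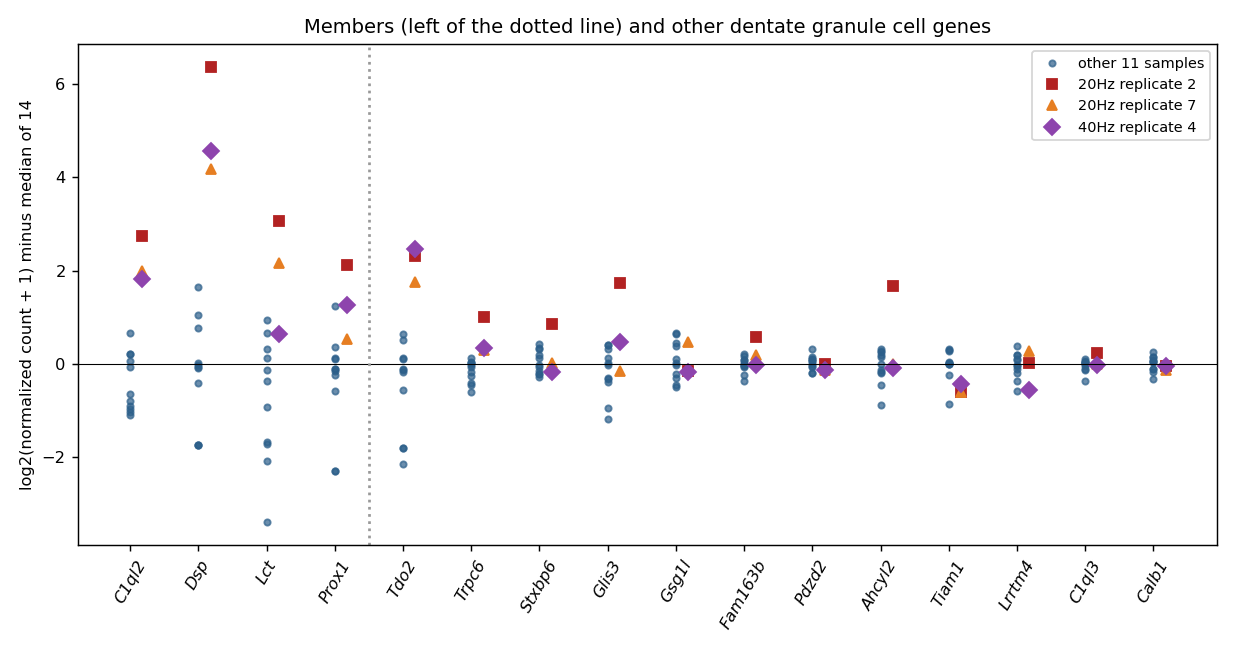
Deviation of log2(normalized count + 1) from each gene's median over 14 samples, for the 4 members to the left of the dotted line and the 12 listed dentate granule cell genes with a mean of at least 10 to its right. Tdo2 and Trpc6 have all 3 marked samples on top, whereas Glis3, Ahcyl2 and Stxbp6 are raised in 20Hz replicate 2 (red squares) and C1ql3 and Calb1 scatter around 0.

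Markers of neighbouring regions were examined in the same samples. Of the CA1 list 0 of 7 genes, of the CA2 list 0 of 5, of the CA3 list 0 of 7 and of the mossy cell list 0 of 2 had all 3 samples above the rest, and 0 of 7 genes of immature neurons did. Over all genes tested, 0.861% had the 3 samples above the rest and 0.692% had them below. A count of 0 in lists this small therefore shows no absence of these cells. Their median deviations in 20Hz replicate 7 and 40Hz replicate 4 lay within the range of the other 11 samples for the CA1, CA2, CA3 and mossy cell lists. The list of immature neurons, at 0.29 in 20Hz replicate 7 and 0.24 in 20Hz replicate 2, lay above its range of -0.23 to 0.23. In 20Hz replicate 2 the CA2 list, at 0.55, and the CA3 list, at 0.35, lay above their ranges, whose upper ends were 0.36 and 0.13. The CA2 list shares Sostdc1 with the choroid plexus list. Sostdc1 measured 2160 in that sample against 22.3 to 469 in the other 11, and the CA2 list was not examined without it. Wfs1, an endoplasmic reticulum gene of CA1, measured 3732 in 20Hz replicate 7 and 3647 in 40Hz replicate 4, above the 1228 to 3196 of the other 11, but 2615 in 20Hz replicate 2. Lefty1, at 166, and Pou3f1, at 3496, also exceeded the other 11 in 20Hz replicate 7. The remaining genes counted on the CA1 list did not. Of 17 cortical layer genes 0 separated upward and 1 downward: Tbr1, a deep layer transcription factor, measured 38.0, 43.9 and 41.8 against 45.3 to 75.6. The median deviation of the cortical list was -0.54 in 20Hz replicate 2, -0.021 in 20Hz replicate 7 and -0.11 in 40Hz replicate 4, against -0.027 to 0.14 in the other 11. By this measure the list was low in 20Hz replicate 2 and, by less, in 40Hz replicate 4, and within the range in 20Hz replicate 7. Its summed level was 10245 in 20Hz replicate 2, 12094 in 20Hz replicate 7 and 12681.5 in 40Hz replicate 4. Against the 12066 to 15984 of the other 11, only 20Hz replicate 2 was low by the sum. The cortical sum includes Calb1, which is also on the granule cell list. The part of cortical layer genes in the levels of the 4 genes was not tested.

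Choroid plexus and ependyma were high in 20Hz replicate 2 and not in the other samples set aside. The choroid plexus list of 7 genes summed to 33216 in 20Hz replicate 2, 555 in 20Hz replicate 7 and 472 in 40Hz replicate 4, against 376 to 5569 in the rest, where the upper end belonged to 20Hz replicate 1. The ependymal list of 6 genes summed to 276, 69.6 and 45.4, against 35.8 to 128. In 20Hz replicate 1 C1ql2, at 354, lay within the other samples. Dsp there, at 9.45 (8 reads), was the highest of the other 11, whose median was 2.18. Further lists left the range of the other 11 in single samples. In 20Hz replicate 7 the median deviation was -1.19 for meninges and fibroblasts (range -0.31 to 0.60), -0.77 for blood (-0.57 to 0.60) and 0.28 for interneurons of the medial ganglionic eminence (-0.41 to 0.18). In 40Hz replicate 4 it was 0.30 for oligodendrocytes (-0.30 to 0.21) and -0.29 for thalamus (-0.22 to 0.52), and in 20Hz replicate 2 it was -0.66 for subiculum and retrosplenial cortex (-0.53 to 0.42). C1ql2 and Dsp were high in 20Hz replicates 2 and 7 and 40Hz replicate 4, with choroid plexus sums of 33216, 555 and 472. The part of the choroid plexus and of these other tissues in the levels of the 4 genes was not tested. Without 20Hz replicate 2, 217 genes (2.03%) had 20Hz replicate 7 and 40Hz replicate 4 above the other 11. In tissue sampled in bulk, fewer cells of a type and less RNA per cell cannot be told apart.

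Relatives and partners of the 4 proteins were examined in the same samples. Over all genes tested only 0.861% had the 3 samples above the rest, so overlap was the usual case and says little of these genes. Among 5 further desmosomal genes only Pkp2, which encodes the plaque protein plakophilin, had the 3 samples above the rest, at 254, 179 and 150 against 47.9 to 113. The desmosomal cadherin gene Dsg2 was highest in 20Hz replicate 2, at 247, but lay at 132 and 152 in 20Hz replicate 7 and 40Hz replicate 4, within 95.9 to 157. Jup and Perp overlapped as well. Of the 6 other C1q-like and cerebellin genes 0 separated, with C1ql1 at 315, 297 and 351 against 208 to 373. Of 7 partners of C1q-like proteins, kainate receptor and neurexin genes among them, 0 did. For Prox1, 0 of 7 genes of caudal interneurons and 0 of 2 lymphatic endothelial genes had the 3 samples on top, although the median deviation of the interneuron list in 20Hz replicate 2, at 0.35, lay above the -0.22 to 0.15 of the other 11; its part in the Prox1 level there was not tested. C1ql2, Lct and Prox1 all lie on chromosome 1, and of 8 listed genes near them 2, Mcm6 beside Lct and Dbi near C1ql2, had the 3 samples above the rest by 1.02- and 1.01-fold. The median deviation of these 8 genes was 0.20 in 20Hz replicate 2, 0.23 in 20Hz replicate 7 and 0.15 in 40Hz replicate 4. All 3 values lay above the -0.16 to 0.11 of the other 11, and any link to the levels of the 4 genes was not tested.

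The genes whose pattern was most like the mean of the 4, by Pearson's r over 14 samples, are given as a description because the 3 samples carry it. With the 4 genes, predicted genes, pseudogenes and clones left out, Trpc6 came first of the tested genes, with r = 0.921, and it is on the granule cell list. It was followed by Pip5k1b, a phosphoinositide kinase gene (0.860), Wasf1, an actin regulator (0.857), Prrt1, an AMPA receptor associated protein gene (0.853), and Pcdh20, a protocadherin gene (0.845). The remaining 7 of the 12 genes named by this measure were Lurap1l, Lman2, Olfm4, Serpina3n, Lrch4, Prkcq and Vwa3b, with r between 0.815 and 0.844. Pcdh20 measured 318, 183 and 148 in the 3 samples against 42.7 to 105, and Olfm4, a secreted glycoprotein gene, 106, 34.8 and 39.4 against 5.44 to 17.7. Without 20Hz replicate 2 Trpc6 remained first, with r = 0.860, and 2 of the 12 genes, Trpc6 and Prrt1, were again among the closest 12. Within the 11 other samples Trpc6 had r = 0.763 and the closest 5 were Trim12a, Atmin, Cap1, Arfip1 and Ppp1r16b, none of which was among the 12.

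Within those 11 samples the 4 genes did not form 1 pattern. C1ql2 and Prox1 had r = 0.603 (Spearman's rho 0.692), Dsp and Prox1 0.606 (rho 0.359) and C1ql2 and Dsp 0.519 (rho 0.541). Lct had r between -0.082 and 0.110 with each of the others (rho -0.227 to 0.0592). Without the 2 samples farthest from the median of C1ql2, r was 0.298 for C1ql2 and Dsp and 0.582 for C1ql2 and Prox1. Dsp and Prox1 held at most 9 reads in each of these samples, so their relations are loose, and no p is given since the genes were chosen with these values known.

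The gene closest to Lct, singled out after its values were seen, was Lefty1, which encodes an inhibitor of Nodal signalling and stood on the CA1 list. Its r with Lct was 0.930 over 14 samples and 0.865 within the 11. Lefty1 measured 190 in 20Hz replicate 2, 166 in 20Hz replicate 7 and 71.6 in 40Hz replicate 4, against 12.9 to 93.6 in the other 11. Like Lct, it was low in 40Hz replicates 1 and 7, at 12.9 and 19.5, and high in 40Hz replicate 6 and 20Hz replicate 5, at 93.6 and 77.4. Next came Nr3c2, the mineralocorticoid receptor gene, with r = 0.901 over 14 samples and 0.797 within the 11. It measured 2287, 1617 and 1203 in the 3 samples against 745 to 1335.

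**Figure D4:**
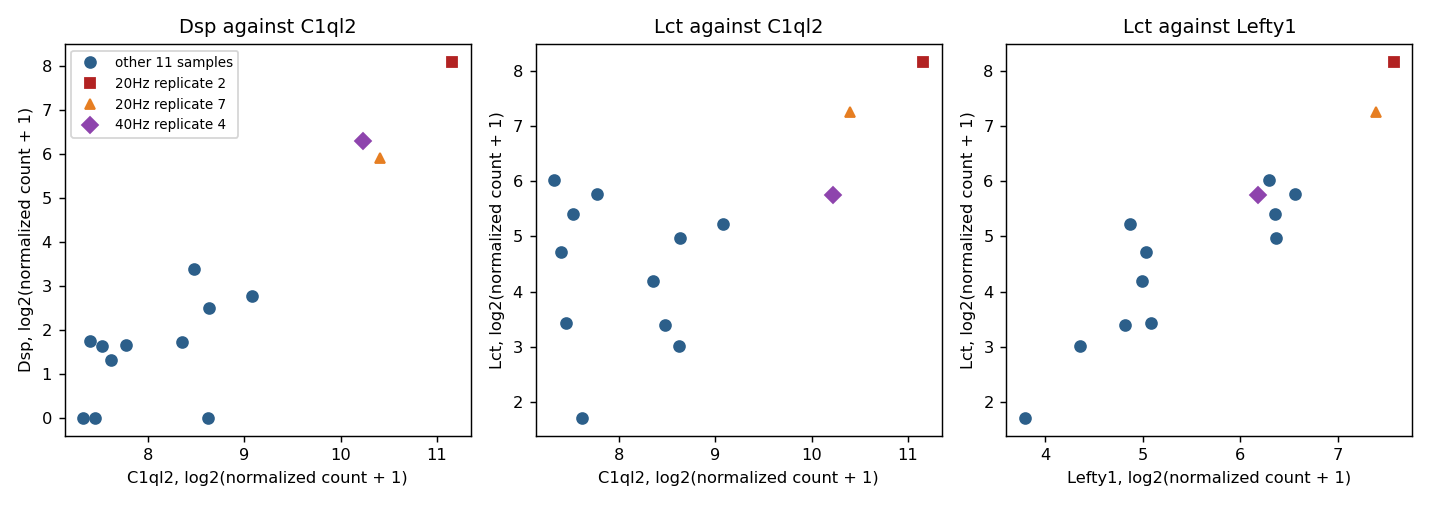
Each point is 1 of the 14 samples, on axes of log2(normalized count + 1): Dsp against C1ql2, Lct against C1ql2, and Lct against Lefty1. The 3 marked samples sit at the upper right of the plot of Dsp against C1ql2, Lct shows no order with C1ql2 among the other 11, and Lct follows Lefty1 across all 14.

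Whether the 4 genes differed between the frequencies was tested, and no difference passed. Frequency was not what they were chosen by, but the high values behind that choice, in 20Hz replicates 2 and 7 and 40Hz replicate 4, entered the fit. The differences and their spread are therefore not independent of the choice. In limma 0 of 10689 genes (0%) had an adjusted p under 0.05 for 40Hz against 20Hz, with 521 at an unadjusted p under 0.05; edgeR called 0 genes with 527 such p-values, and DESeq2 called 3 with 553, none of them a member. C1ql2 measured 743 ± 793 in the 20Hz group and 391 ± 369 in the 40Hz group (mean ± SD, n = 7 mice), with a log2 difference of -0.66 ± 0.66 (SE, limma adjusted p = 0.929). Dsp measured 50.3 ± 100 and 12.6 ± 28.7, with -1.43 ± 1.26 (limma adjusted p = 0.923), and Lct 86.6 ± 99.8 and 25.8 ± 21.0, with -1.47 ± 0.84 (limma adjusted p = 0.919). Prox1 measured 5.88 ± 6.63 and 5.19 ± 4.06, with -0.031 ± 0.59 in a fit without the minimum (limma adjusted p = 0.995). All differences are of log2(normalized count + 1), a scale on which low genes such as Prox1 change by less than their counts do. The groups overlapped for each gene, and the samples set aside were found at both frequencies. The 95% intervals were wide, from -2.09 to 0.77 for C1ql2, -4.13 to 1.28 for Dsp, -3.29 to 0.35 for Lct and -1.24 to 1.18 for Prox1. A p above the threshold therefore does not show that the frequencies gave equal levels.

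Age gave no call either, in fits that again held the values by which the genes were chosen. In limma 0 genes (0%) passed for 5 months against 4 months with frequency in the fit, with 840 at an unadjusted p under 0.05; edgeR and DESeq2 called 0, with 787 and 820. C1ql2 measured 434 ± 429 at 4 months and 700 ± 783 at 5 months, Dsp 10.1 ± 21.7 and 52.8 ± 101, Lct 50.9 ± 49.7 and 61.5 ± 100, and Prox1 3.68 ± 2.03 and 7.39 ± 6.98 (mean ± SD, n = 7 mice). The log2 differences were 0.59 ± 0.67 for C1ql2, 1.73 ± 1.21 for Dsp, 0.24 ± 0.88 for Lct and, without the minimum, 0.55 ± 0.59 for Prox1 (SE, limma adjusted p of 0.876, 0.766, 0.971 and 0.877). The product of frequency and age was not called for any of the 4, with limma adjusted p above 0.99, and 0 genes (0%) passed it, with 404 at an unadjusted p under 0.05. Without the 3 samples set aside, the frequency differences were -0.24 for C1ql2, -0.70 for Dsp, -0.91 for Lct and 0.28 for Prox1, and 0 passed. The age differences were then 0.096 for C1ql2, 0.71 for Dsp, -0.30 for Lct and 0.062 for Prox1, and 0 passed. Leaving out 20Hz replicate 2 alone gave age differences of 0.16 for C1ql2, 0.91 for Dsp, -0.27 for Lct and 0.15 for Prox1. Of the 12 granule cell genes tested 0 passed for frequency, with a median log2 difference of -0.13 against -0.0035 over all genes tested, and 0 passed for age, with a median of -0.059 against -7.93e-05.

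**Figure D5:**
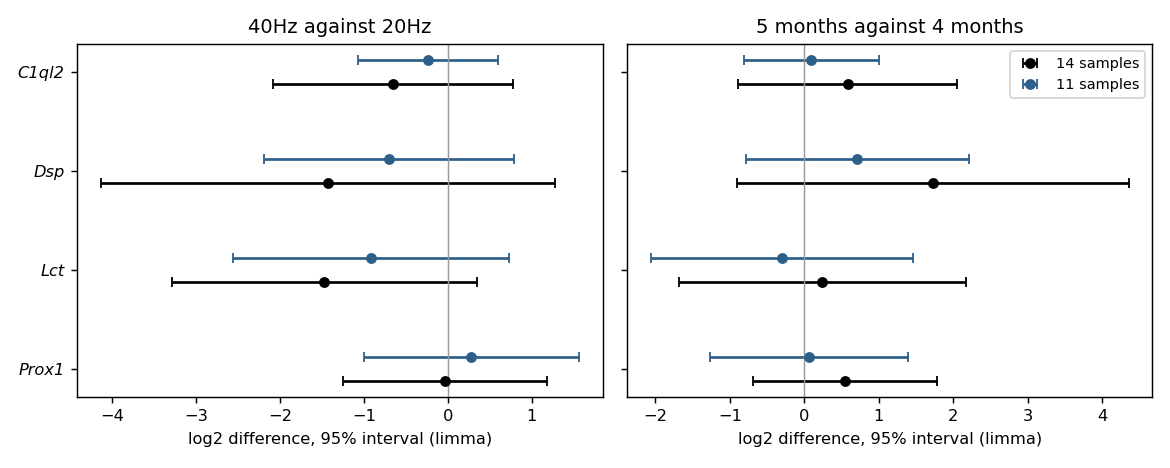
Log2 differences of the 4 genes with 95% intervals from limma, for 40Hz against 20Hz and for 5 against 4 months, in all 14 samples (black) and in the 11 without 20Hz replicates 2 and 7 and 40Hz replicate 4 (blue). Every interval includes 0; Prox1 was fitted without the minimum mean.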

How the data were processed

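RNA of visual cortex was extracted with a column kit, per the labels' protocols. The deposited table holds a signal value for each gene and sample, namely reads divided by 1 factor per sample by the authors; that reading comes from the values, of which 100% were whole reads within 0.01. The submitters' processing notes name GRCm39 and DESeq2; which aligner, counter, annotation and strand setting were used is not stated in these sources, so overlapping and antisense transcripts cannot be told apart. 0 columns were left without a sample.

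For genes with a mean of at least 10, limma 3.58.1 (R 4.3.3) was fitted on log2(value + 1), with trend and robust shrinkage and Benjamini-Hochberg adjustment at 0.05 over all genes. On recovered reads edgeR 4.0.16 and DESeq2 1.42.0 served as alternatives. P-values measure the spread between these mice. The fit was tested on simulated data.

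The members and lists were chosen with earlier results of these data known. Genes were named by rule: the members, the 12 most alike over 14 samples and the 5 most alike over 11. Granule cell genes with a mean of at least 10, and genes of other lists by separation or level, were named too. Rankings by r left out the members, predicted genes, pseudogenes and clones. Ttr, Rtl3, Vwa3b, Il20rb, Wfs1, Pou3f1, Tbr1, Rprm, Lefty1, Nr3c2, Cabp7 and Doc2b were named after their values were seen. No pair of samples within a frequency group was a duplicate, and pairs across the groups were not examined. Promoters and transcript models come from RefSeq on GRCm38.p6; 98.8% of the listed genes had a model.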

Additional observations from a re-analysis of the deposited data

Results flagged for a closer look

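Within each frequency group of 7, a sample was singled out where its gap to the nearest other took more of the group's range than Dixon's 95% limit. Chance does so in about 1 of 20 groups; here 34 genes in 2 groups gave 68 cases, of which 24 were singled out, 14 in 20Hz replicate 2 and 10 in 40Hz replicate 4. Many of the genes were chosen for high values in these same samples, so the number is a description and is not set against chance.

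Of the 4 dentate genes, C1ql2 was singled out in 40Hz replicate 4, at 1197 normalized counts with the next at 396. Dsp was in 20Hz replicate 2, at 273, and in 40Hz replicate 4, at 77.6. Prox1 was in 20Hz replicate 2, at 20.4. C1ql2 and Lct were not singled out at 20Hz.

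Among granule cell genes, 20Hz replicate 2 stood apart for Trpc6 at 304, Stxbp6 at 257, Glis3 at 41.7 and Ahcyl2 at 127, and 40Hz replicate 4 for Tdo2 at 52.5. Among genes alike in pattern, 20Hz replicate 2 stood apart for Pip5k1b at 96.3, Lurap1l at 1012, Olfm4 at 106, Prkcq at 253 and Vwa3b at 94.4, and 40Hz replicate 4 for Olfm4 at 39.4, Serpina3n at 45.4 and Vwa3b at 50.1. Rtl3 stood apart at 79.6 in 20Hz replicate 2 and 43.0 in 40Hz replicate 4, and Il20rb at 194 and 74.0. Ttr stood apart in 20Hz replicate 2 at 13256, and the chromosome 1 genes Mcm6 and Dbi in 40Hz replicate 4 at 53.7 and 550.4.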

How the results depend on the processing

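For 40Hz against 20Hz, the count of 0 genes held in 23 of 24 alternatives, the replicate block included (0 genes); DESeq2 called 3. For age it was 0 in 22 of 22. C1ql2, Dsp and Lct kept a negative frequency difference throughout, with ranges of -0.99 to -0.24, -2.15 to -0.64 and -1.85 to -0.91, and in the replicate block fit C1ql2 was at -0.66. Same-numbered samples did not deviate together (correlations of -0.132 to 0.0800, with 2 of 7 20Hz samples closest to their own number). Prox1 changed sign for frequency, at -0.41 to 0.35 on leaving out each sample in turn and 0.28 without the 3 samples set aside. Lct did so for age, at -0.27 to 0.77 and -0.30. DESeq2 gave no p for Dsp by age. The signs of uncalled differences carry no weight, and the cause of each change was not tested. Under every scaling tried C1ql2 and Dsp separated the 3 samples and Lct and Prox1 did not. The 92 genes that separated them were 217 without 20Hz replicate 2, an alternative chosen after seeing the data, where fewer samples have to agree; of the 6 past 2-fold, 1 was left at a minimum mean of 50, where fewer genes are tested. Of the 12 genes most alike, 3 were shared by Spearman's rho, 7 at a minimum of 50 and 2 without 20Hz replicate 2, and Trpc6 ranked 1 in each. Low counts limit Prox1 and, in 11 samples, Dsp.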

Other observations

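A few genes outside the lists that had 20Hz replicates 2 and 7 and 40Hz replicate 4 above the other 11 samples are given here, chosen after their values were seen. Cabp7, a calcium-binding protein gene, measured 10924, 6094 and 6982 in the 3 samples against 2165 to 4476, and Doc2b, a calcium sensor of vesicle fusion, 5434, 4203 and 3768 against 1547 to 2784. Rtl3, a retrotransposon-derived gene, measured 79.6, 31.8 and 43.0 against 0 to 3.56, the widest ratio of the 10689 genes. Vwa3b measured 94.4, 31.8 and 50.1 against 0 to 11.6, and Il20rb, an interleukin receptor subunit gene, 194, 72.6 and 74.0 against 4.66 to 29.3.

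Genes closest to single members were also looked up after the data were seen. For Dsp the closest over 14 samples was Lrch4, with r = 0.888, at 728, 710 and 727 in the 3 samples against 442 to 602. For C1ql2 it was Olfm4, with r = 0.856 over 14 samples and 0.171 within the 11. For Prox1 it was Arfip1, with r = 0.853 and 0.881, a gene at 28.7 in each of the 3 samples, within the 17.4 to 31.4 of the other samples.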
